A study of Mus musculus with 2 samples.

Results

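The *Hox* genes encode the homeodomain transcription factors that give cells of the embryo their position along the body axis. All 39 *Hox* genes of the mouse were examined here in DP thymocytes, the stage of T cell development that carries both CD4 and CD8 and fills most of the thymus. They were taken from the table by symbol alone, as *Hox*, a cluster letter from a to d and a paralog number, and they are 39 of the 21041 genes listed. Expression was measured by RNA-seq in 2 libraries, 1 of WT and 1 of *Cxxc1*-deficient cells. The WT mice carried the floxed *Cxxc1* allele without Cre, and in the deficient mice, *Cxxc1* fl/fl h*CD2*-Cre by the study's methods, human *CD2* regulatory sequences drove Cre in early thymocytes and in other immune cells. The genotype label of the deficient library reads Cxxc1+/-, so it was grouped by its title, and the sources used here do not say how many mice gave the RNA.

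*Hox* genes lie in 4 clusters, and their order along the chromosome follows the order in which they are used from head to tail. Outside the tissues that need them they are kept silent by Polycomb complexes, and MLL proteins of the trithorax group keep them active where they are used. In blood formation, some are active in stem and early progenitor cells and are switched off as T cells mature. Cxxc1 is a CXXC-domain protein that binds unmethylated CpG and brings the SET1 histone H3K4 methyltransferase complex to CpG islands. In DP thymocytes the study found Cxxc1 signal enriched at island centres, but only a small share of its binding sites on islands. Binding at the *Hox* genes was not examined here. The comparison asks how genes whose promoters are rich in CpG but silent were listed when Cxxc1 was removed.

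The table holds 1 normalized value per gene and library. Among genes under 900 bases with 1 annotated length, 63.8% of the WT values and 61.4% of the *Cxxc1*-deficient values were whole numbers of reads divided by transcript length, within 0.5 of a value unit, against 15.8% and 13.6% for unrelated values. On that reading the values are already per length, a value of 1 is worth approximately 0.247 reads per kb in WT cells and 0.213 in deficient cells, and 19090 matched genes hold approximately 1404008 and 725683 reads. All ratios below divide the *Cxxc1*-deficient value by the WT value, and where a pair of values is given for a gene, WT comes first. With 1 library per genotype there is no replicate check and no p-value, and each 95% interval covers counting error only and compares these 2 libraries. *Cxxc1* itself was listed at 91 in WT cells and at 50 in deficient cells, a ratio of 0.549 (0.337 to 0.875). Cre removes only some of its exons, so a value over the whole gene does not measure the deletion. By qPCR, the study reported almost no *Cxxc1* mRNA in deficient DP cells, and by western blot a loss of the protein. Why the RNA-seq value stayed higher than the qPCR result was not tested. The 10 DP markers were above every *Hox* gene in both libraries, with a median value of 2166.5 in WT cells and 540 in deficient cells. The lowest was *Cd1d1*, listed at 183 and 69, which in deficient cells is close to the highest *Hox* values.

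The promoter sequences below show the kind of CpG content the *Hox* genes carry. Promoter sequences of RefSeq (build GRCm38.p6) matched 22 of the 39 genes, each over the 250 bases before the start and 50 after it. The printed stretches are the 250 bases before the start, 5′ to 3′, with each CG in capitals. They are from *Hoxa5*, *Hoxa6* and *Hoxd12*, which were at least 2-fold apart between the libraries, from *Hoxa10*, which had the highest mean value of all *Hox* genes, and from *Olfr131*, the olfactory receptor gene of highest mean with a promoter in the table, as a gene of a family that is silent in thymocytes. *Olfr131* was itself listed at 43 and 95, the highest value of its family in *Cxxc1*-deficient cells and above the background defined below.
*Hoxa5*, chr6:52204588-52204837 (minus strand): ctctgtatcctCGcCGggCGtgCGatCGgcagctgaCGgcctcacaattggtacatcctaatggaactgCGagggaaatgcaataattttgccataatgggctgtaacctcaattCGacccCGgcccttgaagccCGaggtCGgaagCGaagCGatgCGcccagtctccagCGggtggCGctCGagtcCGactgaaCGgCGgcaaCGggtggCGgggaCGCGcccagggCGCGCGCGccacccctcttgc
*Hoxa6*, chr6:52208673-52208922 (minus strand): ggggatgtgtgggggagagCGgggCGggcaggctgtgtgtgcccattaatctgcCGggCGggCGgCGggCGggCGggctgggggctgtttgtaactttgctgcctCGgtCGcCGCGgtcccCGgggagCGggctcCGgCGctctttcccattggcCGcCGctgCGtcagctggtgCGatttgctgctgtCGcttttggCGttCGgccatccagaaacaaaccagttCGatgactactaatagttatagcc
*Hoxd12*, chr2:74674763-74675012 (plus strand): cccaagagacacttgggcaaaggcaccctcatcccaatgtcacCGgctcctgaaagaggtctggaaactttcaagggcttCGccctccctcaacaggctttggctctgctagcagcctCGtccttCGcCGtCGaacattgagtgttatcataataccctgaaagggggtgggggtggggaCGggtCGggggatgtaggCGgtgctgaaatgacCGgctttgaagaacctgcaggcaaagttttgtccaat
*Hoxa10*, chr6:52234940-52235189 (minus strand): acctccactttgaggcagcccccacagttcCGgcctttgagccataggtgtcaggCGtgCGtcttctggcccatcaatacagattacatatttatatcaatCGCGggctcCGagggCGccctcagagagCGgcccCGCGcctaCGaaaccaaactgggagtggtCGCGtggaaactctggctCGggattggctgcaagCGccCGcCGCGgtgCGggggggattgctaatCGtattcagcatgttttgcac
*Olfr131*, chr17:38082977-38083226 (minus strand): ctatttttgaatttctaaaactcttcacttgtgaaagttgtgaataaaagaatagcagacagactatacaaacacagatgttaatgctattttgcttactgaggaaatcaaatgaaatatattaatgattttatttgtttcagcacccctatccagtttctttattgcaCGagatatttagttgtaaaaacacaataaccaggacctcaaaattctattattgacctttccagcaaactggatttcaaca
The stretch of *Hoxa5* holds 28 CG and that of *Hoxa6* holds 24, whereas *Hoxa10* has 20, *Hoxd12* has 10 and *Olfr131* has 1. The 2 promoters richest in CG among them belong to *Hoxa5*, listed higher in *Cxxc1*-deficient cells, and *Hoxa6*, listed lower. Both were printed because they were past 2-fold in these data, and the intervals of both ratios held 1. No relation of CG content to direction can be drawn from them.

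Over the whole 300 bases, the 22 matched *Hox* promoters held a median of 17.5 CG, from 4 at *Hoxa9* and *Hoxd4* to 45 at *Hoxa13*. The letters CG, which read the same on both strands, were in all 22 and in 95.4% of the promoters of all listed genes. A promoter was called CpG-rich when its CG content was at least 0.6 of that expected from its bases and its GC content at least 50%. By this rule 11 of the 22 *Hox* promoters, or 50%, were CpG-rich, against 50.6% of the 15686 matched promoters of all listed genes, 75.7% of 107 other developmental transcription factors and none of 925 olfactory receptor genes. The name of CpG-island genes therefore held for *Hoxa3*, *Hoxa5*, *Hoxa6*, *Hoxa10*, *Hoxa11*, *Hoxa13*, *Hoxd1*, *Hoxd3*, *Hoxd10*, *Hoxd11* and *Hoxd13* in this window and not for the other 11. A window of 300 bases at 1 start site says nothing of islands elsewhere in the clusters.

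The *Hox* genes were at the level of silent genes in DP thymocytes of both genotypes. The 39 values ran from 15 to 51 in WT, with a median of 31, and from 7 to 58 in *Cxxc1*-deficient cells, where the median was 36. The median of all listed genes was 36 in both libraries. The level of silent genes was taken from the 1102 olfactory receptor genes, which are used in the nose, and the background was set at their 95th percentile, a value of 53.95 in WT cells and 57 in deficient cells. In WT, 0 of the 39 *Hox* genes were above the background. In *Cxxc1*-deficient cells 1 was, *Hoxd10* at 58, and *Hoxa10* was at the background value of 57. None was listed at 0. In a bulk library, fewer expressing cells and less RNA per cell cannot be told apart.

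The background depends on how well short reads can be placed and on transcript length. All 50-base stretches of 31 of the 39 *Hox* transcripts occur once in the genome, and the lowest share was 96.4%, at *Hoxc9*. Many olfactory receptor genes have near copies, and in the 334 whose every stretch occurs once the median value was 38 in WT cells and 40 in deficient cells, higher than the *Hox* medians. Their 95th percentile was 62.35 in WT cells and 64.35 in deficient cells, and 0 *Hox* genes were above it in either library. Olfactory receptor transcripts are also shorter, with a median of 957 bases against 2461 for the *Hox* genes. In values per length, counting error is wider for short transcripts, which raises such a percentile. The other developmental transcription factors had a median length of 2601 bases. Their 95th percentile was 47.4 in WT cells and 49.4 in deficient cells, with 2 and 4 *Hox* genes above it. Counted as reads, the 39 *Hox* genes together had approximately 774 reads in WT cells and 745 in deficient cells over 97.2 kb of transcript. This is 7.96 reads per kb in WT cells and 7.66 in deficient cells, where these 334 olfactory receptor genes had 9.55 and 8.75.

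**Figure D1:**
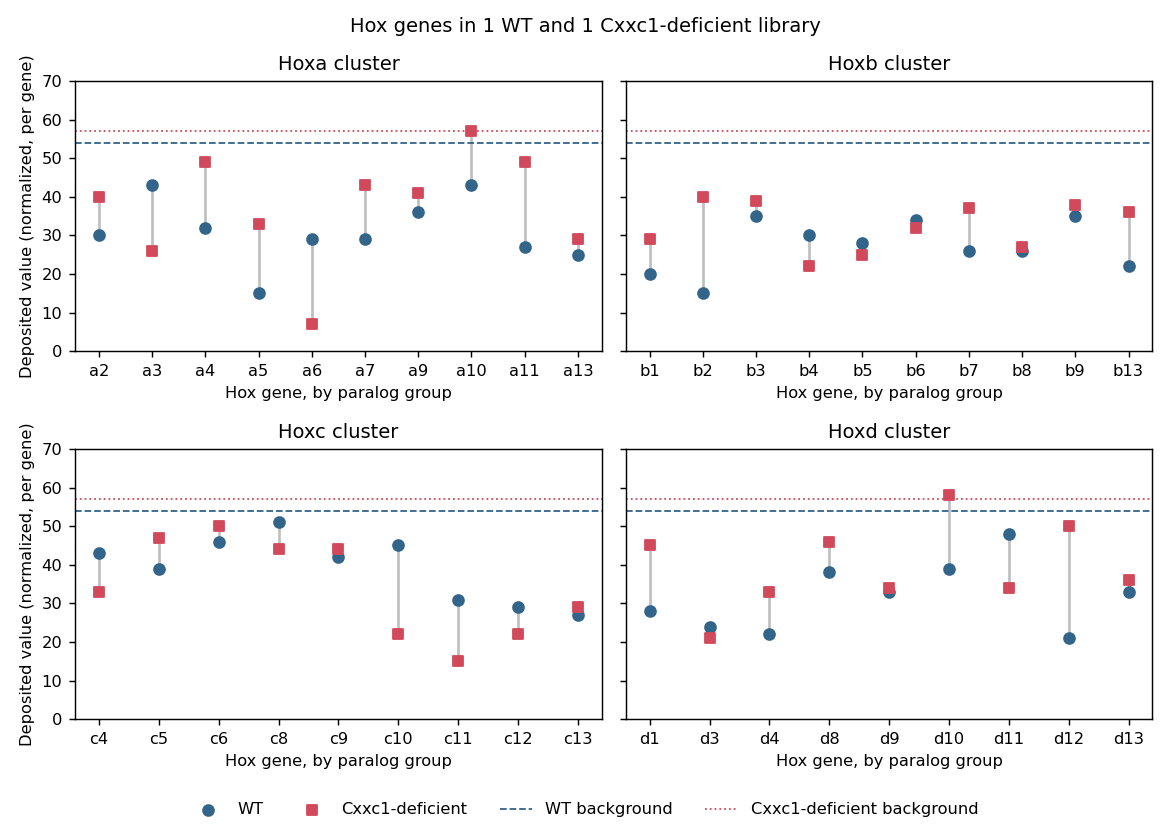
Deposited value of the *Hox* genes named in the text (y axis, normalized value per gene) in the WT library (circles) and the *Cxxc1*-deficient library (squares), by cluster and paralog number (x axis). Grey lines join the values of 1 gene, dashed and dotted lines mark the background of 53.95 in WT cells and 57 in deficient cells, and all points but *Hoxa10* and *Hoxd10* in *Cxxc1*-deficient cells lie below their own library's line.

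Between the libraries, 27 *Hox* genes were listed higher and 12 lower in *Cxxc1*-deficient cells. Of all genes, 7493 were listed higher and 12059 lower. Other silent groups also leaned to the higher side, with 582 olfactory receptor genes higher and 459 lower. The other developmental transcription factors had 88 higher and 60 lower. Past 2-fold, 3 were lower, against a background of 17.4% of all 20125 genes above 0 in at least 1 library, and 3 were higher, against 5.89%. Each count is 7.69% of the 39. Genes with a mean value from 15 to 60, the range that holds every *Hox* gene, were split by promoter. Of those with a CpG-rich promoter 9.24% were 2-fold lower, and of those with a CpG-poor one 7.03%, so the *Hox* share on the lower side was near both. On the higher side these shares were 2.69% and 7.86%, and the *Hox* share was near that of the CpG-poor genes and above that of the CpG-rich ones. That share rests on 3 genes, *Hoxa5* with a CpG-rich promoter, *Hoxd12* with a CpG-poor one and *Hoxb2* with none matched. The range to a mean of 60 also reaches past the background of 53.95 and 57, so neither class holds silent genes only. Of the other developmental transcription factors, 3.82% were 2-fold lower and 4.46% 2-fold higher. The median log2 ratio was 0.13 for the *Hox* genes and -0.20 for all genes. The *Hox* values summed to 1258 in WT cells and 1402 in deficient cells, a ratio of 1.11, and the reads gave 1.11 with an interval from 1.01 to 1.23. These counts follow the scaling of the libraries. With the olfactory receptor genes at the same mean, 22 *Hox* genes were higher and 17 lower, and with genes of a mean of at least 100 at the same median, 36 were higher and 3 lower, 27 of them at least 2-fold higher.

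*Hoxb2*, which patterns the hindbrain, had the highest ratio. It was listed at 15 in WT cells and at 40 in deficient cells, a ratio of 2.67 from approximately 12 and 28 reads (1.33 to 5.83). Its exons overlap those of *Hoxb3os* on the other strand, so some of these reads may belong to that RNA. *Hoxd12*, a gene of the limb and digits, was listed at 21 and 50, a ratio of 2.38 from 14 and 28 reads (1.18 to 4.76). These were the only *Hox* genes whose interval lay above 1, as it did for 2.55% of the 18346 genes with a length and reads. *Hoxa5*, which shapes the lung and the neck skeleton, was listed at 15 in WT cells and 33 in deficient cells, and with 7 and 13 reads its ratio of 2.20 had an interval from 0.797 to 6.36. All of these higher values were within the background of the *Cxxc1*-deficient library.

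*Hoxa6*, the neighbour of *Hoxa5*, had the lowest ratio, with 29 in WT cells and 7 in deficient cells. These are approximately 12 and 3 reads, and the ratio of 0.241 had an interval from 0.0524 to 1.07. *Hoxc10*, used in motor neurons of the hindlimb, was listed at 45 and 22, a ratio of 0.489 (0.200 to 1.13). *Hoxc11*, next to it in the cluster, was listed at 31 and 15, a ratio of 0.484 (0.147 to 1.26). All 3 intervals held 1, and *Hoxc10* and *Hoxc11* were within 2-fold when both libraries had the same 75th percentile.

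The 3 genes of highest mean value were *Hoxa10*, *Hoxd10* and *Hoxc6*. *Hoxa10*, needed in the uterus and for lumbar identity, was listed at 43 in WT cells and 57 in deficient cells, from approximately 27 and 31 reads (ratio 1.33, 0.768 to 2.31). *Hoxd10*, a gene of the lumbar spinal cord and limb, was listed at 39 and 58, from 25 and 33 reads (ratio 1.49, 0.882 to 2.68). *Hoxc6*, a thoracic gene, was listed at 46 and 50. In WT the highest of all was *Hoxc8*, also thoracic, at 51, which was listed at 44 in *Cxxc1*-deficient cells. *Hoxa10* and *Hoxd10*, which are paralogs of group 10, thus led in *Cxxc1*-deficient cells but not in WT and by differences within counting error, while their paralog *Hoxc10* was listed lower.

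Over all 39, the interval of the ratio lay above 1 for 2 genes, below 1 for 0 and held 1 for 37. Among all genes, 22.3% had an interval below 1. Of 155 other developmental transcription factors, 10 lay above and 3 below, and of 1045 olfactory receptor genes, 19 above and 5 below. The log2 ratios of the 39 had an SD of 0.66, where counting error alone would give 0.51 with reads taken on the longest transcripts. With the shortest transcripts the reads came to 484 in WT cells and 477 in deficient cells, and counting error would be wider. A spread beyond counting error is thus not shown. Across genes, the WT and *Cxxc1*-deficient values of the 39 had a Pearson r of 0.245 and a Spearman rho of 0.266, as a description of genes that share the same 2 libraries. With a median of 18 reads per gene in each library, from 7 to 50 in WT and from 3 to 33 in *Cxxc1*-deficient cells, differences in 1 gene were hard to detect. The ratio of 1.81 of *Hoxa11*, from 18 and 28 reads, still had an interval that held 1 (0.962 to 3.46).

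The *Hoxa* cluster on chromosome 6 holds 11 of the genes, and 9 were listed higher in *Cxxc1*-deficient cells. *Hoxa2*, which patterns the second branchial arch, was listed at 30 in WT cells and 40 in deficient cells. *Hoxa3*, whose loss in the pharynx prevents a thymus from forming, was listed at 43 and 26. *Hoxa3* and *Hoxa6* were the 2 genes of the cluster listed lower. *Hoxa4* was listed at 32 and 49, and *Hoxa7* at 29 and 43. *Hoxa9*, active in blood stem cells and in MLL leukaemia, was listed at 36 and 41. *Hoxa11*, of the kidney and forelimb, was listed at 27 and 49, a difference as large in value units as that of *Hoxa6*. None of these passed the background. *Hoxa13*, of the digits and genital tract, was listed at 25 and 29. The cluster's median was 30 in WT cells and 40 in deficient cells, and the ratio from all its reads was 1.17 (0.966 to 1.43).

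The *Hoxb* cluster (mm9, chr11:96055630-96229570) holds 10 of the genes, 7 listed higher in *Cxxc1*-deficient cells. *Hoxb1*, a hindbrain gene, was listed at 20 in WT cells and 29 in deficient cells. *Hoxb3* was listed at 35 and 39. *Hoxb4*, which expands blood stem cells when forced on, was listed at 30 and 22. Beside *Hoxb4*, the genes listed lower were its neighbours *Hoxb5*, at 28 and 25, and *Hoxb6*, at 34 and 32. *Hoxb7* was listed at 26 and 37, *Hoxb8* at 26 and 27, and *Hoxb9* at 35 and 38. *Hoxb13*, of the prostate and tail, was listed at 22 and 36. No gene of the cluster passed 40 in either library, and the ratio from all reads was 1.20 (0.970 to 1.47).

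The *Hoxc* cluster (chr15:102751534-102867274) holds 9 of the genes and was the one cluster with a lower sum in *Cxxc1*-deficient cells. Of the 9, 5 were listed lower, *Hoxc4*, *Hoxc8*, *Hoxc10*, *Hoxc11* and *Hoxc12*, and 4 higher. *Hoxc4* was listed at 43 in WT cells and 33 in deficient cells, and *Hoxc12* at 29 and 22. *Hoxc5* was listed at 39 and 47, and *Hoxc9* at 42 and 44. *Hoxc13*, a gene of hair follicles, was listed at 27 and 29. The median was 42 in WT cells and 33 in deficient cells, and the ratio from all reads was 0.892 (0.711 to 1.12).

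The *Hoxd* cluster (chr2:74506367-74603200) holds 9 of the genes, 7 listed higher in *Cxxc1*-deficient cells. *Hoxd1* was listed at 28 in WT cells and 45 in deficient cells, *Hoxd3* at 24 and 21, and *Hoxd4* at 22 and 33. *Hoxd8* was listed at 38 and 46, and *Hoxd9* at 33 and 34. *Hoxd11*, of the forelimb and kidney, was listed at 48 and 34, and it had the most reads of the 39 in WT, approximately 50 on a transcript of 4257 bases. *Hoxd13*, of the digits, was listed at 33 and 36. The median was 33 in WT cells and 36 in deficient cells, and the ratio from all reads was 1.18 (0.967 to 1.44).

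The 4 clusters' intervals all held 1 and overlapped each other. In 3 broad groups by position along the clusters the intervals held 1 as well. The anterior genes, paralog groups 1 to 3 (8 genes), had a ratio of 1.17 (0.929 to 1.48). The central groups 4 to 8 (15 genes) had 1.07 (0.907 to 1.27), and the posterior groups 9 to 13 (16 genes) had 1.12 (0.958 to 1.31). No ordered difference along the body axis was detectable at this depth. Of the 13 single paralog groups, 2 had an interval above 1, group 2 with 1.89 (1.18 to 3.09) and group 12 with 1.82 (1.02 to 3.31), and these hold *Hoxb2* and *Hoxd12*. Exons of 18 of the 39 genes overlap those of another annotated gene, such as *Hoxa2* with *Hoxa3* and *Hoxb7* with *Hoxb8*. Whether the counting used strand is not given in the sources used here, so reads of such pairs cannot be told apart.

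How the *Hox* level is read depends on the genes it is set against. Relative to the other developmental transcription factors, a list of 155 genes such as *Pax*, *Sox* and *Fox* family members, the *Hox* reads per kb were 1.04 times as high in WT cells and 1.05 in deficient cells, a change of 1.00 (0.897 to 1.12). Relative to the olfactory receptor genes with every stretch found once, they were 0.834 in WT cells and 0.876 in deficient cells, a change of 1.05 (0.940 to 1.18). Against genes of both silent kinds the *Hox* level thus moved by less than counting error. Relative to genes with a mean value of at least 100, it was 0.0935 in WT cells and 0.233 in deficient cells, a change of 2.49 (2.25 to 2.76). Of those 2472 expressed genes, 2353 were listed lower in *Cxxc1*-deficient cells, and their median value was 213.5 in WT cells and 107 in deficient cells. The *Hox* values thus stayed near their level while most expressed genes were listed lower, and whether silent or expressed genes give the right scale cannot be told apart from these files.

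**Figure D2:**
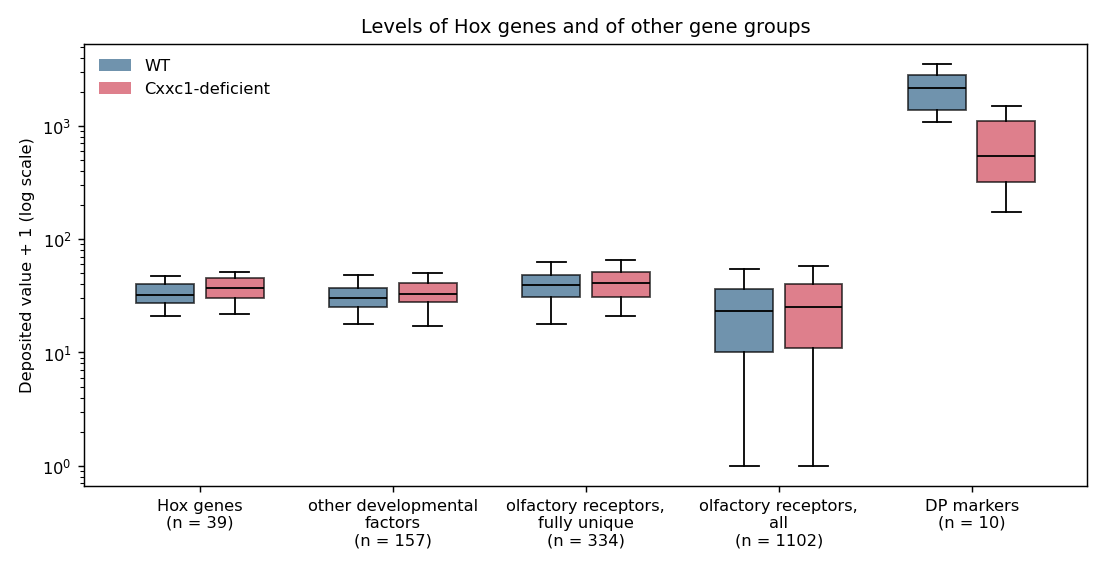
Deposited value plus 1 (y axis, log scale) of 5 gene groups in the WT and *Cxxc1*-deficient libraries. Boxes show the quartiles over genes with the median as a line, and whiskers the 5th and 95th percentiles. The *Hox* boxes (medians of 31 and 36) lie beside the other silent groups, while the DP markers lie above them and are lower in *Cxxc1*-deficient cells.

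Genes of a like level were also set beside the *Hox* genes by promoter class. Among genes with a mean value from 15 to 60, the 4609 with a CpG-rich promoter had a median of 37 in WT cells and 35 in deficient cells, for a median log2 ratio of -0.13. The 5649 with a CpG-poor promoter had medians of 31 and 33 and a median log2 ratio of 0.05. The *Hox* median log2 ratio of 0.13 compares with 0.10 for the other developmental transcription factors, of which 88 were listed higher and 60 lower. As deposited, the median of the CpG-rich class was thus below 0 and that of the *Hox* genes above it, and a difference of medians between gene groups has no test with 1 library per genotype.

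**Figure D3:**
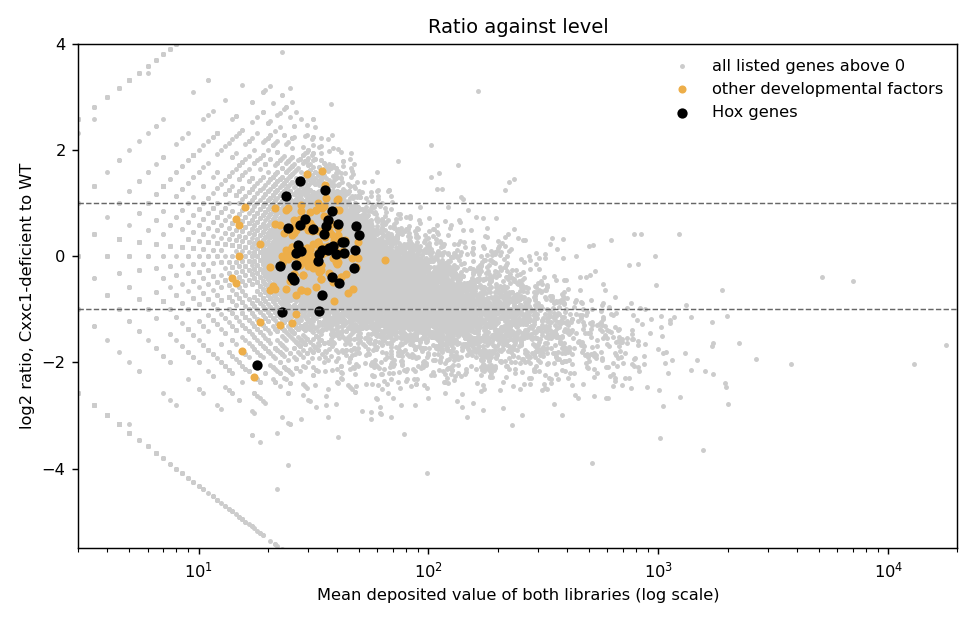
Log2 ratio of the *Cxxc1*-deficient to the WT value (y axis) against the mean value of both libraries (x axis, log scale), with each value raised to at least 1. Black points are the 39 *Hox* genes and orange points the other developmental transcription factors. Grey points are all genes above 0 in at least 1 library that fall within the axes, and dashed lines mark 2-fold. The *Hox* genes sit at low means around a log2 ratio of 0, with 3 above and 3 below the lines, while grey points of high mean lie mostly below 0.

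Other RNAs of the clusters were as low as the *Hox* genes. *Hotair*, a long RNA of the *Hoxc* cluster, was listed at 22 in WT cells and 42 in deficient cells. *Hottip*, at the 5′ end of *Hoxa*, was listed at 31 and 38. *Hoxa11os*, antisense to *Hoxa11*, was listed at 24 and 42, next to the 27 and 49 of *Hoxa11* itself. Exons of *Hoxa11* overlap an annotated gene on the other strand. Without the strand used in counting, the same reads may be in both values. *Hoxaas3* was listed at 29 and 28, and *Hoxd3os1* at 36 in both. No transcript matched these 5 by symbol, so no reads or intervals are given for them.

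*Hox* proteins bind DNA together with TALE homeodomain cofactors of the Pbx, Meis and Pknox families, and of 9 such genes 3 were at least 2-fold lower in *Cxxc1*-deficient cells and 0 higher. The share of 33.3% compares with 17.4% of all genes and 56.8% of genes with a mean of at least 100. *Pbx2* was listed at 140 in WT cells and 55 in deficient cells (ratio 0.393, 0.262 to 0.579). *Pknox1* was listed at 106 and 63. These were the 2 cofactors of highest mean, and both were above the background in WT. *Pbx4*, at 48 and 17, and *Meis3*, at 63 and 31, were the other 2 past 2-fold. *Meis1* was listed at 28 and 31, *Meis2* at 36 and 38, *Pbx3* at 39 and 28 and *Pknox2* at 22 and 31.

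The ParaHox and Evx genes, the closest relatives of the *Hox* clusters, were as low, apart from *Gsx2* in *Cxxc1*-deficient cells. *Evx2* lies 8.45 kb beyond *Hoxd13* and was listed at 20 in WT cells and 46 in deficient cells (ratio 2.30, 1.36 to 4.06). *Evx1*, at the same end of *Hoxa*, was listed at 30 and 33. *Pdx1*, the pancreatic gene, was listed at 6 and 18, and it and *Evx2* were the 2 of 8 past 2-fold, both higher, a share of 25% where all genes had 5.89% and the olfactory receptor genes 20.2%. *Gsx2* was listed at 37 and 59, above the background of 57 in *Cxxc1*-deficient cells, *Gsx1* at 23 and 32, *Cdx1* at 37 and 27, *Cdx2* at 34 and 31 and *Cdx4* at 43 and 35. *Evx2* and *Hoxd12* thus both had ratios past 2-fold, while *Hoxd13*, which lies between them, was listed at 33 and 36.

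Among the genes that act on *Hox* chromatin, Polycomb genes were mostly lower. Of 29, 26 were listed lower in *Cxxc1*-deficient cells, 11 of them (37.9% of the list) at least 2-fold, and 2 were higher, with a median of 78 in WT cells and 47 in deficient cells. *Ezh2*, the main H3K27 methyltransferase, was listed at 477 and 132 (ratio 0.277, 0.213 to 0.359). *Suz12*, its partner, was listed at 482 and 168, and *Eed*, the third core subunit, at 93 and 34. Of all genes 59.9% were lower and 17.4% at least 2-fold lower, and of genes with a mean of at least 100, 95.2% and 56.8%. The Polycomb median log2 ratio of -0.77 compares with -1.08 for genes with a mean of at least 100, and no test of that difference was possible. The 2 listed higher were *Cbx2*, at 41 and 49, and *Phc1*, at 98 and 117. Of 15 SET1 and MLL genes, *Cxxc1* included, 12 (80%) were listed lower, against 59.9% of all genes and 95.2% of genes with a mean of at least 100. Past 2-fold were 2, a share of 13.3% against 17.4% and 56.8%. The list's median in WT cells was 97, where that of all genes was 36. The 2 past 2-fold were the shared subunit *Rbbp5*, at 94 and 22, and the SET1 subunit *Wdr82*, at 162 and 67. *Kmt2a*, which encodes the MLL protein that maintains *Hox* expression, was listed at 201 and 229, *Setd1b* at 94 and 125 and *Men1*, which tethers MLL, at 60 and 66.

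Several genes beside the clusters are expressed in DP thymocytes, and most of these were listed lower in *Cxxc1*-deficient cells. *Skap1*, an adaptor of T cell receptor signalling 96.3 kb beyond *Hoxb1*, was listed at 183 in WT cells and 62 in deficient cells (ratio 0.339, 0.215 to 0.525). *Cbx1*, further on the same side, was listed at 376 and 111, and *Tax1bp1*, the third gene beyond *Hoxa13*, at 831 and 256. *Skap2*, beyond the 3′ end of *Hoxa*, was listed at 42 and 11 (ratio 0.262, 0.0667 to 0.835), within the background in both libraries and so not among the expressed neighbours. *Lnp*, beyond *Evx2*, was listed at 116 and 70, and *Mtx2*, 60.7 kb from *Hoxd1*, at 135 and 71. *Calcoco1*, 199 kb from *Hoxc13*, was listed at 169 and 170, and *Smug1*, at the other end, at 47 and 44, also within the background. Expressed neighbours beyond *Hoxb1* and on both sides of *Hoxd* were listed lower, and most *Hox* genes of these clusters higher. Across the whole table, 95.2% of the 2472 expressed genes, those averaging 100 or more, were listed lower too. The contrast therefore goes with level, and a difference particular to the cluster borders was not tested. The remaining neighbours were *Snx10*, *Cbx3* and *Hibadh* at *Hoxa*, *Ttll6*, *Calcoco2*, *Atp5g1* and *Snx11* at *Hoxb*, *Atp5g2*, *Atf7*, *Cbx5* and *Hnrnpa1* at *Hoxc*, and *Atp5g3*, *Hnrnpa3* and *Nfe2l2* at *Hoxd*, with values in WT from 0 to 448.

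**Figure D4:**
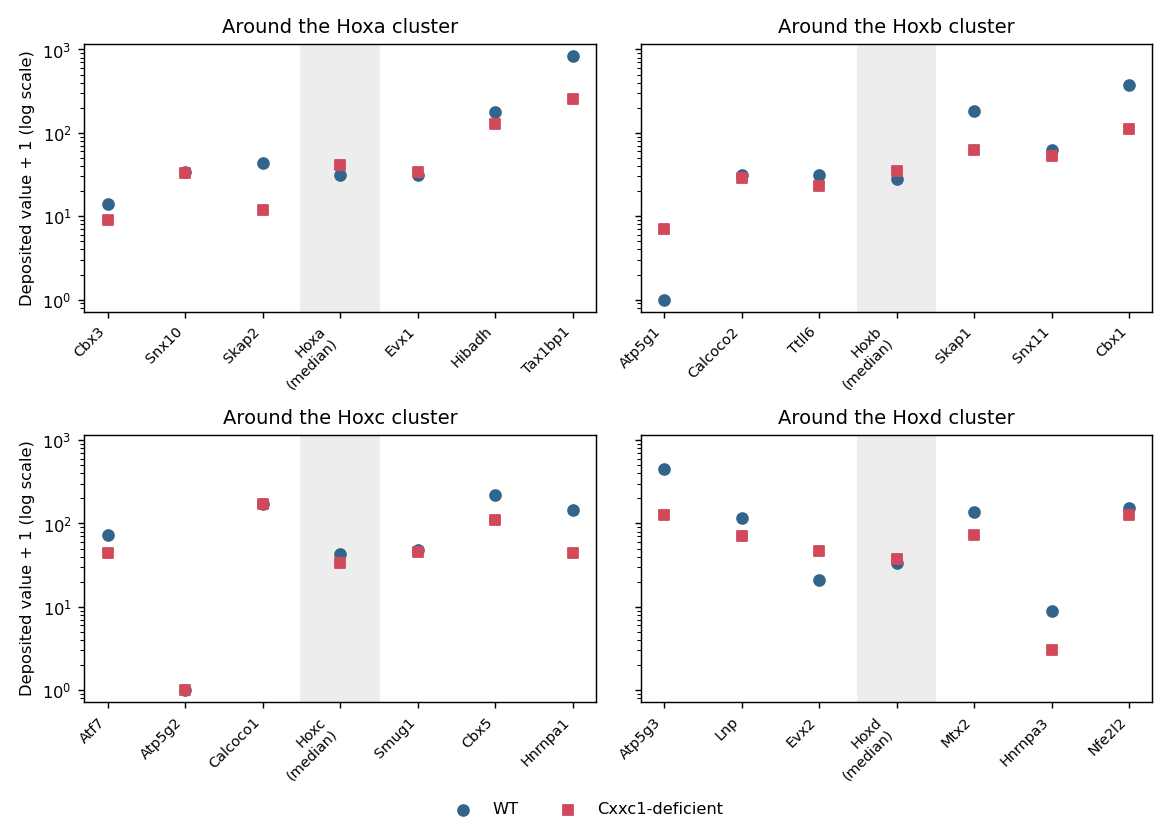
Deposited value plus 1 (y axis, log scale) of the nearest 3 listed protein-coding genes on each side of each cluster and of the median *Hox* gene of the cluster (shaded), in WT (circles) and *Cxxc1*-deficient (squares) cells. Genes are in order along the chromosome and not to scale. Expressed neighbours such as *Tax1bp1*, *Skap1* and *Mtx2* are lower in *Cxxc1*-deficient cells, while the cluster medians lie between 27 and 42 in both.

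Markers of other cells of the thymus were also compared. The study sorted its cells by flow cytometry, and the gate used for these RNA samples is not described in the sources used here. In the *Cxxc1*-deficient thymus the study reported more DN cells, which lack CD4 and CD8, than DP cells. It also reported an increase of DN3 cells and less CD8 protein on DP cells. How far a gate on CD4 and CD8 removed other cells from each library was not tested. Of 12 genes of early thymocytes and progenitors, cells in which some *Hox* genes are active, the values summed to 437 in WT cells and 612 in deficient cells, while the median of the list was 33 and 35. Most of the difference of the sums came from 1 gene. This was *Il2ra*, which marks DN2 and DN3 thymocytes and was listed at 63 and 207 (ratio 3.29, 2.47 to 4.37). *Mef2c* was listed at 39 and 61. *Kit* was listed at 35 and 36 and *Flt3* at 32 and 24, both within the background, and none of the 12 was at 0. The 11 markers of thymic epithelium and stroma summed to 372 in WT cells and 307 in deficient cells, with *Krt8* at 0 in *Cxxc1*-deficient cells. The 9 myeloid markers summed to 330 and 329, the 6 B cell markers to 196 and 167, and the 7 erythroid markers to 104 and 129, of which *Hbb-b2*, *Hba-a1* and *Hba-a2* were at 0 in both. The part of other cells in the *Hox* values was not tested.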

How the data were processed

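RNA-seq of 1 WT and 1 *Cxxc1*-deficient DP thymocyte library was analysed. The authors prepared mRNA libraries, sequenced reads of 50 bases, mapped them to mm9, kept unique reads and summarised them per gene with Partek. The submitters' processing notes name CASAVA 1.8.2 and Bowtie 1.0.1, and the gene annotation is not given in the sources used here. The authors deposited a score per gene and library, which is a normalized value rounded to whole numbers.

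Ratios were taken between deposited values, each raised to at least 1, and called past 2-fold, since 1 library per genotype allows no test. Transcript lengths are the longest in GENCODE vM1 (NCBIM37, the build of mm9). The worth of 1 read was found in each library as the constant that makes most values of short genes whole reads. Intervals are 95% Clopper-Pearson intervals of the reads rescaled by these constants, and PCR reads without molecular identifiers are not independent molecules. The steps were tested on simulated data. Stretches of 50 bases were searched in NCBIM37 on both strands.

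*Hox* genes were named by cluster, all of them counted in the summaries, and some genes of these lists are not reported here. Other named genes were *Cxxc1*, other RNAs of the clusters, the nearest 3 listed protein-coding genes on each side, and members of the cofactor, ParaHox, SET1, MLL and Polycomb lists. Marker lists covered DP, early thymocyte, B, erythroid, myeloid and stromal cells. The members and lists were chosen with earlier results of these data known. Alternatives were 5 scalings, 2 pseudocounts, a filter on low values, a 3-fold threshold, other backgrounds and the shortest transcript. Coordinates of genes are of mm9 and those of promoters of GRCm38.p6. The scripts used numba 0.67.0, matplotlib 3.10.9, scipy 1.17.1, pandas 2.3.3 and numpy 2.4.6 under Python 3.11.15.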

Additional observations from a re-analysis of the deposited data

How the results depend on the processing

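Of 54 values recomputed under the alternatives, 26 moved and 0 reversed. Counts and summed reads could not reverse by the rule used, and only the ratio of sums and the median log2 ratios could. Some of the rest could not move, since the filter on low values removed no *Hox* gene and a common factor leaves the *Hox* median relative to all genes as it was. Scaling moved the *Hox* results together with all genes. As deposited, 27 *Hox* genes were listed higher and 12 lower, and with the olfactory receptor genes at the same mean, which shifted the all-gene median log2 ratio by -0.11, the split was 22 and 17. With the same 75th percentile (all genes up by 0.39) it was 32 and 7, with 1 gene 2-fold lower, 7 higher, a median log2 ratio of 0.51 and a ratio of sums of 1.46. With the same sum without the 100 highest genes (up by 0.56), 1 was 2-fold lower and 12 higher, with a median of 0.69 and a ratio of sums of 1.65. With the same median of genes with a mean of at least 100, chosen after seeing the data (up by 1.00), 1 was lower and 27 higher, with 1.12 and 2.22. *Hoxa6* stayed 2-fold lower and *Hoxa5*, *Hoxb2* and *Hoxd12* 2-fold higher under each of the 5 scalings. For the higher genes this could hardly fail, since only the scaling to the olfactory receptor genes lowered the *Cxxc1*-deficient values, and by little. The scalings do not change counting error, and the intervals of *Hoxa5* and *Hoxa6* held 1. A pseudocount of 10 left 1 gene lower and 1 higher, and a threshold of 3-fold left 1 lower and 0 higher. In *Cxxc1*-deficient cells 0 *Hox* genes were above the 99th percentile of the olfactory receptor genes and 0 above the 95th percentile of those with every stretch found once, the latter chosen after seeing the data. Above the 95th percentile of the vomeronasal receptor genes were 8 in WT cells and 4 in deficient cells, above that of the other developmental transcription factors, also chosen after seeing the data, 2 and 4, and above the median of all genes 12 and 19. With the shortest transcripts, the *Hox* reads came to 484 in WT cells and 477 in deficient cells, and intervals from fewer reads would be wider. No paired analysis was possible because there is only 1 library of each genotype, and no replicate could be left out. A median of 18 reads per *Hox* gene limits what can be seen in 1 gene.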
